A study of Mus musculus with 72 samples.

Results

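Horizontal basal cells are the reserve stem cells of the olfactory epithelium, and the genes described here are 8 that mark them: the keratins Krt5, Krt14, Krt15 and Krt17, the transcription factor Trp63, the adhesion molecule Icam1 and the integrin subunits Itgb4 and Itga6. They were taken as a named list, by symbol in the deposited expression table and by Ensembl identifier in the count table. No cut-off on a measured value was used, but the list was chosen with earlier results of these data known. They are 8 of the 54532 genes in the tables, and all 8 passed the filter on low counts, which left 22144 genes. RNA was sequenced from olfactory epithelium of mice of 3 genotypes, in 72 libraries and 25 groups (22 groups of 3 libraries, and 3 groups of 2). The control genotype was Omp-IRES-tTA, an allele from which Omp-expressing cells also produce tTA, a transcriptional activator; Omp encodes the olfactory marker protein of mature sensory neurons. EctopicFzd1 mice carried Omp-IRES-tTA together with tetO-Fzd1-IRES-tdTomato, so that tTA switches on the Wnt receptor gene Fzd1, with the marker tdTomato, unless doxycycline (DOX) is given. Fzd1lacZ mice carried the Fzd1-lacZ knockout allele, which the titles mark as homozygous. Their labels name no tTA allele, so they differ from control in Omp-IRES-tTA as well as in Fzd1. These 3 genotypes were sampled without DOX at postnatal days (P) 0, 3, 7, 10 and 14. A DOX course that began at P0 was run in 2 of the genotypes, control and ectopicFzd1, with samples at P1 and then at P3, P7, P10 and P14. The transgene is thus driven by the promoter of a neuron gene, while the knockout labels name no cell type or driver.

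Horizontal basal cells lie flat on the basement membrane below the globose basal cells, the neurons and the sustentacular cells. They rarely divide in the intact tissue, and after injury they leave rest and rebuild all of its cell types. Keratin filaments (a type II keratin such as Krt5 paired with a type I keratin such as Krt14) tie into hemidesmosomes, the junctions in which the Itga6 and Itgb4 proteins hold the cell to laminin. Trp63 encodes p63, which keeps these cells in the basal, resting state, and falls when they are activated. Basal cells of the neighbouring respiratory epithelium and of gland ducts use the same genes, and Icam1 and Itga6 are also made by endothelium. In RNA from whole tissue, fewer cells of a type and less RNA per cell cannot be told apart.

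All 8 genes had counts in each of the 72 libraries, and so did all 10 mature neuron markers, among them Cnga2 and Gnal of the odorant response. Libraries held 1.315 M to 8.788 M gene counts (M, mega), with a median of 4.28 M, and the 8 genes together took 105 to 4559 of these counts, with a median of 1198. Between 0.054% and 73.8% of a library's gene counts fell on 13 predicted genes of satellite-repeat type, and this share passed 25% in 8 libraries, of which 5 were Fzd1lacZ libraries. Of these, Fzd1lacZ P10 replicates 1 and 3 were at 68.3% and 73.8%, and left 105 and 118 counts for the 8 genes. The Fzd1 level went against the label in 2 libraries: ectopicFzd1 P3 replicate 3 had 43.0 CPM (counts scaled to library size), like control, and control DOX P7 replicate 1 had 3.45 CPM, like the knockout. Omp itself differed between control groups: it lay between 27.8 and 61.1 CPM at P3, P7 and P10 without DOX and between 1329 and 1514 CPM at P14. Whether these controls carry the same Omp alleles was not tested. The titles give each library an ID, and groups came from different ID series, with no series common to P0 and P14 without DOX. For that comparison age and ID series cannot be told apart, while control DOX P1 and P14 came from 1 series. The labels do not say that the libraries of a group are separate animals, so a p-value here speaks only of spread among libraries, which may be technical.

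The 4 keratin genes lie in 2 places. Krt15 (mm10 chromosome 11, 100131758 to 100135928, minus strand), Krt14 (100203162 to 100207548) and Krt17 (100256217 to 100261029) sit in the type I keratin cluster, with 71.4 kb between Krt15 and Krt14 and 53.1 kb between Krt14 and Krt17. Krt5 lies in the type II cluster on chromosome 15 (101707070 to 101712898, minus strand). Itgb4 is also on chromosome 11 (115974709 to 116008412), far from the keratins, and Itga6 (chromosome 2, 71745616 to 71858416), Trp63 (chromosome 16, 25683763 to 25892102) and Icam1 (chromosome 9, 21015985 to 21028817) stand alone. Keratin transcripts resemble each other: 14.4% of the 50-base words of the Krt14 transcript occur in other genes, mostly Krt16, and 8.52% of those of Krt5, mostly Krt6a. The share was 6.5% for Itga6, 3.99% for Krt17, 0.666% for Krt15 and 0 for Trp63, Icam1 and Itgb4, that is, no such word of the last 3 occurs in another gene's transcripts. Trp63 and Itga6 also overlap predicted genes on their own strand, Gm27005 for Trp63 and Gm13662 and Gm13663 for Itga6. Krt5, Trp63, Icam1, Itgb4 and Itga6 each overlap at least 1 annotated gene on the other strand, and whether counting was stranded is not stated, so reads of such partners may be shared with them.

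Since the genes are studied here as a group that moves with age, the sequence in front of 2 of them is shown, 250 bases before the start site in RefSeq's GRCm38.p6 annotation, 5′ to 3′ on the gene's strand. RefSeq windows matched 3 of the 8 genes (Krt5, Krt14 and Icam1), and that of Krt14 starts 1518 bases inside its GENCODE start and is not printed. Capitals mark the p53-family decamer, the kind of element that p63 binds, in Krt5 (chr15:101712906-101713155, minus strand), and the NF-kB type motif GGAAATTCC in Icam1 (chr9:21015690-21015939, plus strand).
Krt5: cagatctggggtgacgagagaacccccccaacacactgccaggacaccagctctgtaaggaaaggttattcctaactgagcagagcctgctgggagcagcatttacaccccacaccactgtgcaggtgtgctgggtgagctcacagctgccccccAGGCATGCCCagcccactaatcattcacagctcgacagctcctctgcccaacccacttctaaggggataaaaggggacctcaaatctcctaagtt
Icam1: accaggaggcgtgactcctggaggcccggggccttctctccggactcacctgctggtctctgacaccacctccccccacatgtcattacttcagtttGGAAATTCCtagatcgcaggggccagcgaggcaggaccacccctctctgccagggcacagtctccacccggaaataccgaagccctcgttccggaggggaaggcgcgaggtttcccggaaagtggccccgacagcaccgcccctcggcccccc
The decamer ends 85 bases before the Krt5 start and the Icam1 motif ends 144 bases before its start. Searched on both strands of all 32851 RefSeq windows of this length, the p53-family decamer occurs in 7.13% and GGAAATTCC in 0.286%. TATAAA (12.4% of windows) and the AP-1 type motif TGANTCA (6.75%) are not in these 3 windows. A match is a stretch of letters and not a measured binding site.

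Scaled for transcript length (TPM, transcript abundance per library), the keratins and Itga6 were the highest of the 8 genes. At P0 without DOX Krt15 led, with a median of 50.01 TPM over 9 libraries (31.8 to 65.9). Krt14 followed with 24.5 TPM (19.2 to 28.9), then Itga6 with 22.7 TPM (19.0 to 32.6), Krt5 with 17.7 TPM (14.3 to 24.1) and Krt17 with 12.1 TPM (9.16 to 21.3). Itgb4 at 5.16 TPM, Trp63 at 5.09 TPM and Icam1 at 2.84 TPM were the lowest. The ranges of neighbours in this order overlapped, except that Krt15 lay above Krt14. By P14 Krt14 led, with a median of 10.3 TPM over 8 libraries (8.56 to 13.8), and Krt15 stood at 7.01 TPM (3.15 to 16.5), with ranges that overlapped.

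The postnatal course without DOX asks how the basal cell genes behave while the epithelium grows around them. All 8 genes fell between P0 and P14, Krt15 and Itgb4 by the most, and on the count scale the step from P0 to P3 held most of the calls. Of all genes tested, 27.2% were called lower in this contrast and 31.6% higher, and the median change over the 8 genes was -0.90 on the log2 scale beside 0.06 over all genes tested. A call here is an adjusted p below 0.05 by edgeR's quasi-likelihood test with Benjamini-Hochberg adjustment over all genes tested, averaged over the 3 genotypes. An edgeR test over all 5 ages at once also called 8 of the 8, where it called 68.3% of all genes.

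Krt15, a type I keratin of basal layers and of slow-cycling epithelial stem cells, had the largest change of the 8. At P0 it lay at 129 CPM (median of 9 libraries, 89.6 to 216) and at P14 at 26.9 CPM (median of 8 libraries, 14.9 to 77.8). No P14 library reached the lowest P0 library. The fitted change was -2.20 (SE 0.28) on the log2 scale, to 0.218 of the P0 level (adjusted p = 1.04e-09, edgeR). Krt5, the type II keratin that defines the layer, went from 61.9 CPM (47.5 to 86.1) to 37.0 CPM (27.2 to 49.5), a change of -0.68 (SE 0.14, adjusted p = 2.61e-05, edgeR). Its partner Krt14 went from 59.1 CPM (41.6 to 72.2) to 36.3 CPM (30.7 to 53.4), a change of -0.55 (SE 0.15, adjusted p = 0.0012, edgeR). For both genes the highest P14 libraries overlapped the lowest P0 libraries. Krt17, a keratin made in wounded and activated epithelium, went from 29.3 CPM (23.9 to 50.4) to 18.2 CPM (16.02 to 32.3) and changed by -0.62 (SE 0.14, adjusted p = 0.00017, edgeR). With the satellite-type share of each library as a covariate, Krt5, Krt14 and Krt17 were no longer called (adjusted p = 0.0735, 0.382 and 0.0897, edgeR). That share itself moved with age, from a median of 0.438% at P0 to 11.1% at P14, and its part in the result beyond that fit was not tested.

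Trp63 lay at 39.8 CPM at P0 (22.2 to 48.8) and 21.5 CPM at P14 (17.0 to 34.8). Its change was -0.65 (SE 0.13, adjusted p = 2.66e-05, edgeR), close in size to that of Krt5, and the P0 and P14 ranges overlapped. Counts per gene do not separate the long and short p63 isoforms.

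The 2 integrin subunits had the smallest adjusted p-values of the 8 genes. Itgb4, which reaches into the hemidesmosome and binds its plectin plate, went from 44.4 CPM (36.4 to 79.8) to 16 CPM (12.3 to 18.7), with a change of -1.70 (SE 0.16, adjusted p = 2.95e-13, edgeR). Itga6, its laminin-binding partner, went from 125 CPM (101 to 159) to 52.8 CPM (48.3 to 67.5), with a change of -1.21 (SE 0.12, adjusted p = 1.51e-12, edgeR). For neither subunit did the P0 and P14 libraries overlap. The share of all genes without overlap between the first and last age, without or with DOX, was not counted. Icam1, a ligand of leukocyte integrins by which these cells are often sorted, was the lowest of the 8, at 11.4 CPM at P0 (9.32 to 16.6) and 5.31 CPM at P14 (3.05 to 10.6). It changed by -1.12 (SE 0.22, adjusted p = 1.43e-05, edgeR), with 1 library, Fzd1lacZ P14 replicate 2 at 10.6 CPM, inside the P0 range.

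**Figure D1:**
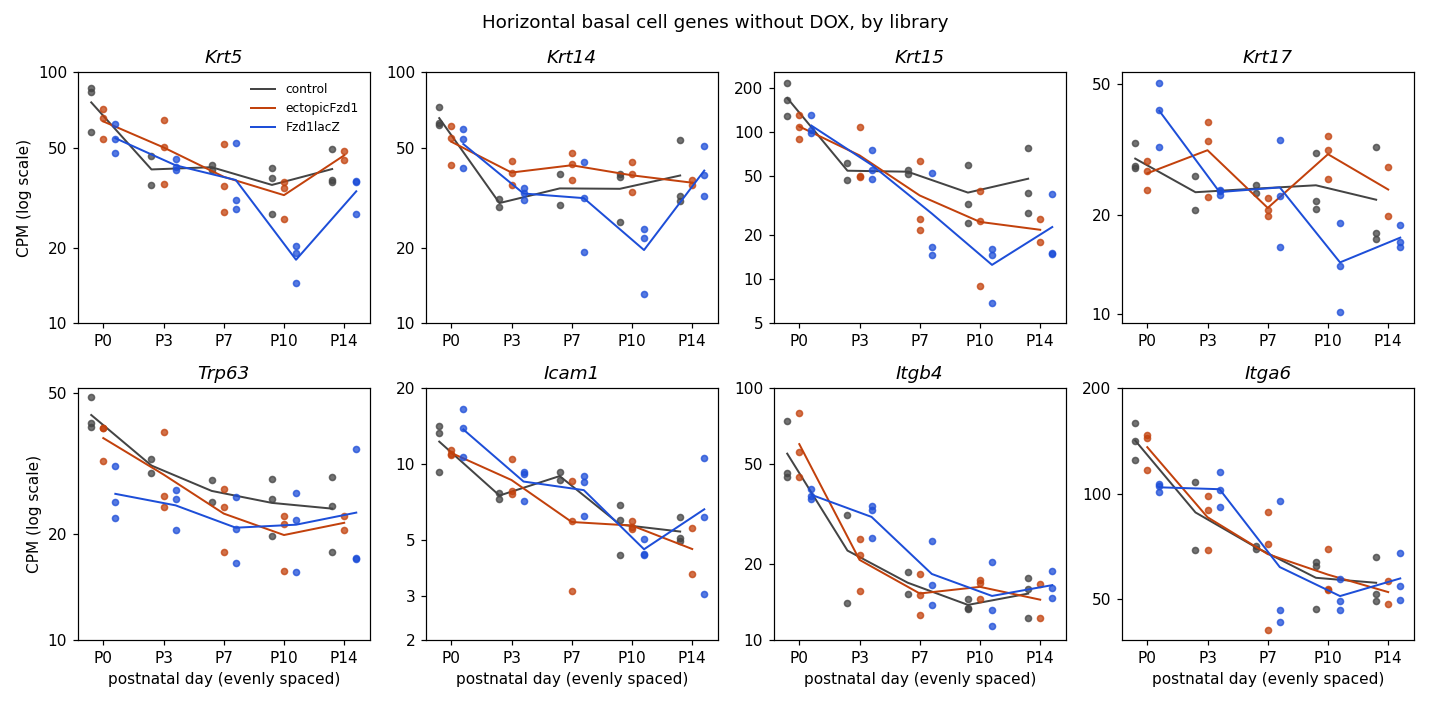
CPM of each gene (log axis) against postnatal day without DOX. Points are libraries and lines join group means, in control, ectopicFzd1 and Fzd1lacZ; Krt15, Itgb4 and Itga6 at P14 lie wholly below P0, while the other genes overlap.

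Step by step, 6 of the 8 genes were called lower at P3 than at P0, where 9.25% of all genes tested were called lower. Itgb4 (-1.02, SE 0.15) and Krt15 (-1.05, SE 0.25) moved the most, followed by Krt14 (-0.73, SE 0.14), Icam1 (-0.58, SE 0.19), Krt5 (-0.52, SE 0.13) and Itga6 (-0.45, SE 0.11). Krt17 (-0.30, adjusted p = 0.106) and Trp63 (-0.30, adjusted p = 0.071) missed the edgeR threshold. From P3 to P7 the integrins went on falling, Itgb4 by 0.52 (SE 0.17) and Itga6 by 0.45 (SE 0.12), and these 2 were the only calls among the 8, with 11.9% of all genes called lower. From P7 to P10 (0.975% of all genes lower) and from P10 to P14 (0.149% lower) edgeR called none of the 8, with 3 and 2 of them at an unadjusted p below 0.05. In both of these steps DESeq2 called Krt5 alone, lower at P10 than at P7 (-0.48, adjusted p = 0.0281) and higher at P14 than at P10 (0.49, adjusted p = 0.0492), and limma on log2(TPM + 1) called none. The scale moved the calls between the first 2 steps: limma on log2(TPM + 1) called Itgb4, Krt14 and Krt15 lower at P3 than at P0, and 7 of the 8, all except Icam1, lower at P7 than at P3. The shares of all genes given for these steps are edgeR's, and those of limma are not given here.

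Within single genotypes the fall from P0 to P14 was called for 7 genes in control (22.2% of all genes lower), 5 in ectopicFzd1 (15%) and 6 in Fzd1lacZ (11%). Krt15, Icam1, Itgb4 and Itga6 were called in each genotype. The genes missed were Krt17 in control (-0.41, adjusted p = 0.143), Krt5 (-0.45, adjusted p = 0.168), Krt14 (-0.54, adjusted p = 0.124) and Krt17 (-0.16, adjusted p = 0.683) in ectopicFzd1, and Krt14 (-0.35, adjusted p = 0.324) and Trp63 (-0.28, adjusted p = 0.405) in Fzd1lacZ, all by edgeR. Whether the P14 to P0 change itself differs between genotypes was not tested. Single libraries decide several of these calls. Without control P14 replicate 2 or 3, Krt14 in control had an adjusted p of 0.0585 or 0.0604, and without control P14 replicate 1 Krt17 in control was called (-0.78, adjusted p = 0.0149). Icam1 and Trp63 in ectopicFzd1 lost their calls without either P14 library (adjusted p = 0.0553 to 0.204), and without Fzd1lacZ P14 replicate 1 Trp63 in Fzd1lacZ was called (-0.58, adjusted p = 0.0432). In Fzd1lacZ, Icam1 lost its call in 4 of the 6 fits that leave 1 library out and Krt5 in 2 of 6 (adjusted p = 0.0764 to 0.154 and 0.0917 to 0.135).

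To ask whether the 8 genes fell by the same factor, each gene was also set against Krt5 within its own library, as a log2 ratio of counts, a measure chosen after the values above were seen. Krt15 stood at 0.98 ± 0.20 (SD, n = 9) relative to Krt5 at P0 and at -0.50 ± 0.73 (SD, n = 8) at P14. The averaged difference was -1.55, lower in each of the 3 genotypes (exact permutation within genotype, 2-sided, p = 0.00025, the smallest possible, and 0.0035 adjusted over the 28 ratios computed). Itgb4 went from -0.37 ± 0.45 to -1.33 ± 0.33, a difference of -1.0 with the same exact permutation p. Itga6 went from 0.99 ± 0.27 to 0.49 ± 0.38, a difference of -0.53 (adjusted exact permutation p = 0.028). The Itga6 value rose above the threshold, to between 0.0505 and 0.0572, without any 1 of 7 libraries: control P0 replicate 3, control P14 replicate 1, ectopicFzd1 P0 replicates 1, 2 and 3, Fzd1lacZ P0 replicate 3 and Fzd1lacZ P14 replicate 2. For Icam1 the difference was -0.52 (adjusted exact permutation p = 0.0668). Krt14 (0.11), Krt17 (0.04) and Trp63 (0.03) differed from Krt5 by less than the spread between libraries. Thus without DOX Krt15 and Itgb4 fell by more than Krt5 did, and for Krt14, Krt17 and Trp63 no such difference was detected.

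**Figure D2:**
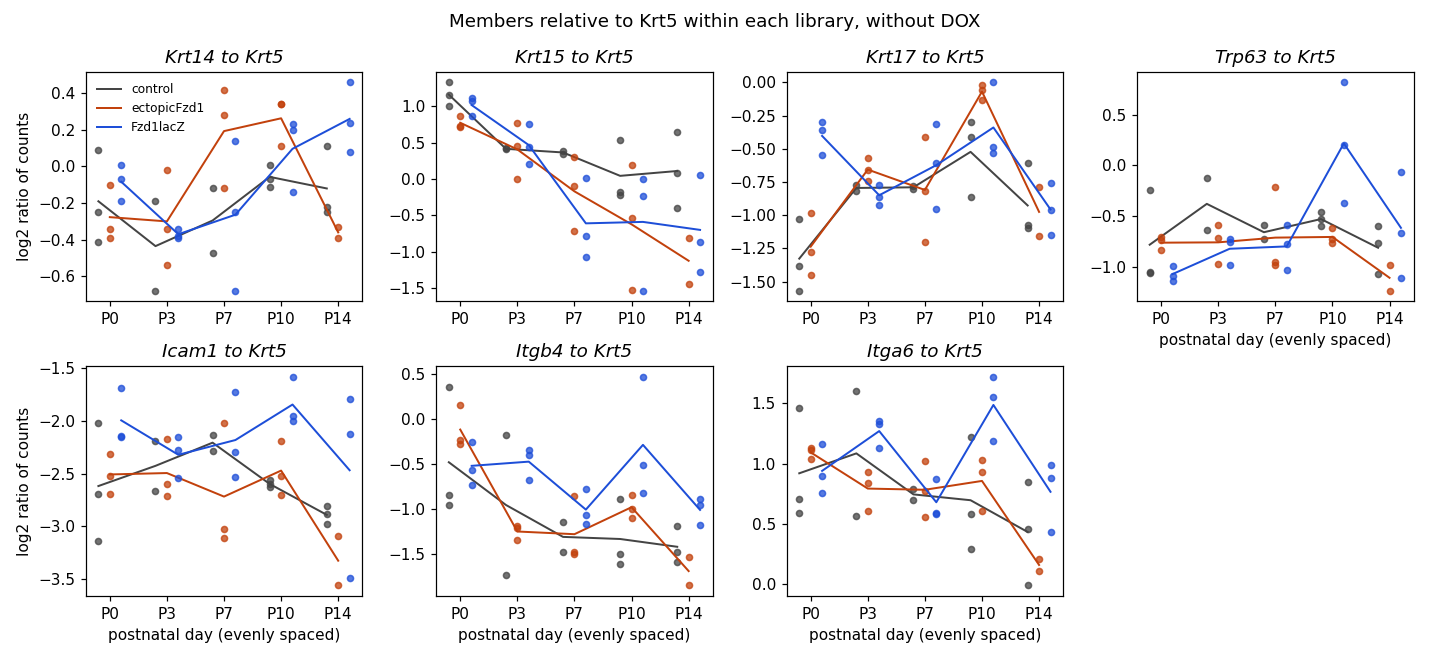
Log2 ratio of each gene's counts to those of Krt5 in the same library, against postnatal day without DOX, with points for libraries and lines for group means. The Krt15 ratio goes from a mean of 0.98 at P0 to -0.50 at P14 and the Itgb4 ratio from -0.37 to -1.33. The Trp63 ratio has a mean of -0.87 at P0 and -0.81 at P14. Its highest values are 0.82 and 0.2, in Fzd1lacZ P10 replicates 1 and 3, the libraries with the largest satellite-type shares.

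Genes that work with the 8 were described through lists chosen by function, whose counts stand beside the 27.2% of all genes called lower and 31.6% called higher. Of 9 hemidesmosome partners and laminin chains, 7 were lower at P14 than at P0 and none higher, with a list median of -0.59 beside 0.06 over all genes tested. Col17a1, the transmembrane collagen of the hemidesmosome, changed by -1.47 (SE 0.16), Plec, its plectin plate, by -1.01 (SE 0.12), and Dst, the other plaque linker, by -0.66 (SE 0.09). Among 8 genes known as p63 targets 5 were lower and none higher, with a median of -0.77. They include Fras1, a basement membrane protein gene (-1.41, SE 0.09), Cldn1, a tight junction gene (-1.59, SE 0.19), and Perp, a desmosome gene (-1.03, SE 0.15). Of 8 other receptors and regulators of these cells 5 were lower and 2 higher. Those with the smallest adjusted p were all lower: Notch1 (-1.40, SE 0.12), Egfr (-0.63, SE 0.09), Notch2 (-0.58, SE 0.10) and Jag1 (-0.53, SE 0.10). The 2 higher genes had larger adjusted p-values and are not named here. Of 9 genes of activated horizontal basal cells 2 were called, both lower: Krt6a (-2.74, SE 0.70) and Dmkn (-0.54, SE 0.14). Krt6a shares sequence words with Krt5.

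Markers of other cell types moved over the same ages. Ciliated cells are a cell type of respiratory-type epithelium, and their markers were lower for 6 of 7 genes. Their summed level lay between 1405 and 3381 CPM in P0 libraries and between 606 and 888 CPM in P14 libraries. With DOX, from P1 to P14, Dnah5 (-1.17) and Dnah9 (-1.13) of this list were lower, but Ccdc39 (0.58) and Rsph1 (0.5) were higher. Of the respiratory secretory cell markers tested, Bpifa1 alone was called without DOX, and it was higher (0.75, SE 0.18). Of the Bowman gland markers, Obp2b (6.34, SE 0.42), Lcn3 (3.82, SE 0.41) and Obp2a were higher without DOX, and Muc5b was lower (-0.72, SE 0.19). Endothelial markers were lower for 7 of 8 genes (median -1.17), with sums of 118 to 210 CPM at P0 and 54.0 to 109 CPM at P14. No ciliated marker was at 0 in any library, and of the endothelial markers Icam2 was at 0 in 1. Suprabasal squamous markers went in both directions (3 higher and 2 lower of 8) and were low, at 19.2 to 124 CPM at P0 and 8.51 to 53.4 CPM at P14 in sum. Of these, Dsg1a was at 0 in 16 libraries and Lor in 13. The part of these cell types in the fall of the 8 genes was not tested. In the other direction, all 10 mature neuron markers, all 4 immature neuron markers and all 5 sustentacular markers were higher at P14. Cnga2, the odorant-gated channel gene, changed by 1.81 (SE 0.15) and Cyp2g1, a sustentacular cytochrome, by 2.07 (SE 0.16). Cycling and globose basal cell markers were lower for 4 of 8, among them Mki67 (-1.41, SE 0.11) and Kit (-1.50, SE 0.10).

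**Figure D3:**
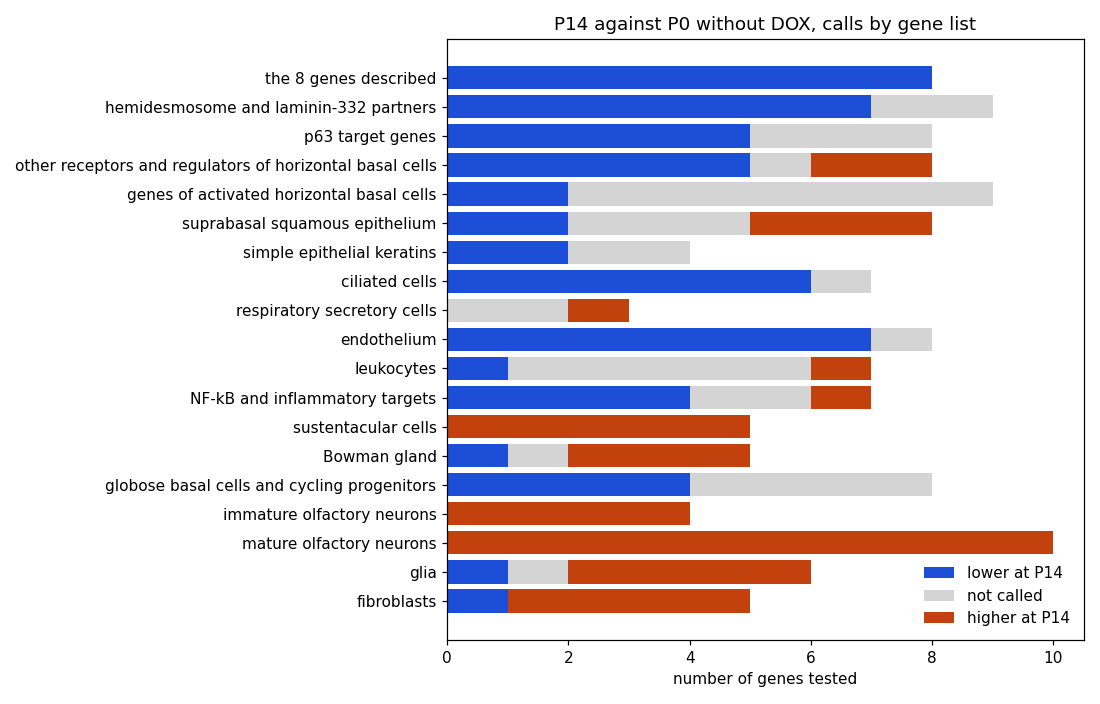
Number of genes of each list called lower, not called or called higher at P14 than at P0 without DOX, by edgeR at an adjusted p below 0.05. The 8 basal cell genes and 7 of 9 hemidesmosome partners are lower, while all 10 mature neuron markers and all 5 sustentacular markers are higher.

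With DOX 7 of the 8 genes were called lower at P14 than at P1, where 26.6% of all genes tested were. Krt15 went from 63.5 CPM (56.5 to 90.6, 6 libraries) to 19.8 CPM (8.49 to 39.5, 6 libraries), a change of -1.73 (SE 0.33, adjusted p = 1.1e-05, edgeR), with no overlap. Within the 1 ID series of the control libraries it went from 64.6, 62.5 and 56.5 CPM to 8.49, 13.1 and 17.5 CPM. Itgb4 changed by -1.40 (SE 0.19), Icam1 by -1.05 (SE 0.25) and Itga6 by -0.97 (SE 0.14). Krt17 (-0.57, SE 0.18), Krt5 (-0.47, SE 0.16) and Trp63 (-0.41, SE 0.16) moved less. Krt14 was at 28.8 CPM (21.2 to 43.8) at P1 and 27.5 CPM (24.1 to 49.1) at P14, a change of 0.02 with a 95% interval of -0.33 to 0.37. The calls of Krt5 and Trp63 were lost without 1 library in 3 and 4 of 12 fits (adjusted p = 0.0547 to 0.0619 and 0.0506 to 0.0945), both without control DOX P14 replicate 1 and without ectopicFzd1 DOX P1 replicate 2, Krt5 also without control DOX P1 replicate 2, and Trp63 also without ectopicFzd1 DOX P14 replicate 1 or 2. Krt5 also lost its call with the satellite-type share as a covariate (adjusted p = 0.114) and without the libraries above 25% (0.0816), and Trp63 with DESeq2 (0.0854). On the TPM scale, where all genes shifted by a median of -0.59 with a pseudocount of 1, Krt14 was called lower too (-0.88). Set against Krt5 in the same library, Krt14 was higher at P14 than at P1 (0.47, adjusted exact permutation p = 0.02). Krt15 (-1.3), Itgb4 (-0.94) and Itga6 (-0.5) were lower (0.02 each), as was Icam1 (-0.53, adjusted exact permutation p = 0.0467). Krt17 (-0.08) and Trp63 (0.08) were not called. Without 1 library the Icam1 call was lost in 9 of 12 fits (up to 0.1), that of Krt14 in 3 (up to 0.0583) and that of Itgb4 in 1 (0.0509). The earliest DOX sample is P1 and not P0, so these changes are not set against those without DOX.

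Whether Fzd1 made by neurons changes the basal cell genes was asked by ectopicFzd1 against control without DOX, averaged over the 5 ages. Fzd1 itself was 24.2-fold higher. EdgeR called none of the 8 genes, against 9.19% of all genes tested, DESeq2 and limma on log2 TPM called none either, and 1 gene, Krt15, had an unadjusted p below 0.05. Krt15 differed by -0.50 (SE 0.21, adjusted p = 0.148) with a 95% interval of -0.92 to -0.08. The other intervals were narrower: -0.21 to 0.22 for Krt5, -0.13 to 0.34 for Krt14, -0.11 to 0.33 for Krt17, -0.38 to 0.03 for Trp63, -0.49 to 0.22 for Icam1, -0.24 to 0.29 for Itgb4 and -0.22 to 0.16 for Itga6. Krt15 was called without ectopicFzd1 P7 replicate 2 (-0.65, adjusted p = 0.047), whose 64.0 CPM stood above the 21.5 and 25.7 CPM of its group, and with no filter on low counts (-0.48, adjusted p = 0.000115). Set against Krt5 in the same library, Krt15 did differ: the log2 ratio was 0.42 ± 0.53 (SD, n = 13) in control and -0.08 ± 0.81 (SD, n = 14) in ectopicFzd1. The averaged difference was -0.57, lower at 5 of 5 ages (exact permutation p = 0.00383, 0.02 adjusted over the 28 ratios), and it was lost on the log2 ratio of TPM + 0.1 (adjusted exact permutation p = 0.0516). At P14 Krt15 was at 17.8 and 25.5 CPM in ectopicFzd1 and at 28.3, 38.5 and 77.8 CPM in control, without overlap (so were 17.9% of all genes, lower). The difference was not called (adjusted p = 0.44, edgeR) except in a fit of only the groups compared (0.0241) and with no filter on low counts (0.00149). Control and ectopicFzd1 without DOX came from different ID series at P14, so genotype and series cannot be told apart at that age. Across single ages without DOX edgeR, DESeq2 and limma on log2 TPM called none of the 8 (of all genes edgeR called 10.3% at P10, 1.76% at P14, 0.754% at P0, 0.704% at P7 and 0.569% at P3), and by edgeR only Krt15 at P14 had an unadjusted p below 0.05. The edgeR test of whether the effect differs among ages called none either (0.357% of all genes), with none at an unadjusted p below 0.05. None of the hemidesmosome, p63 target, other receptor or activated cell genes was called, while 9 of 10 mature neuron markers were lower, Stoml3 by 1.48 (SE 0.14) and Adcy3 by 1.05 (SE 0.13).

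Loss of Fzd1 was asked in the same way by Fzd1lacZ against control, which shares its control libraries with the comparison above. Fzd1 fell to 0.180 of control. Of the 8 genes 2 were called lower, Krt15 and Trp63, beside 1.42% of all genes tested, and none higher. Krt15 differed by -0.93 (SE 0.22), to 0.526 of control (adjusted p = 0.009, edgeR), and the call held in every fit without 1 library. By age it stood at 98.9, 131 and 103 CPM in Fzd1lacZ beside 166, 216 and 129 CPM in control at P0, and at 55.4, 48.1 and 76.1 CPM beside 61.8 and 47.5 CPM at P3. At P7 it was at 52.7, 16.5 and 14.7 CPM beside 52.1 and 55.5 CPM. At P10 the values were 14.5, 6.92 and 16.1 CPM beside 32.6, 59.6 and 24.1 CPM, and at P14 37.9, 15.1 and 14.9 CPM beside 77.8, 38.5 and 28.3 CPM. Only at P10 did the groups not overlap, as was so for 4 of the 8 genes, all lower, and for 4.87% of all genes. The 2 P10 libraries with the largest satellite-type share hold 10 and 11 Krt15 counts. Without libraries above 25% the averaged difference was -0.98. In that fit Fzd1lacZ rests on replicate 1 alone at P7 (52.7 CPM) and on replicate 2 alone at P10 (6.92 CPM). The part of the satellite-type share in the Krt15 difference was not tested.

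Trp63 differed by -0.39 (SE 0.11), to 0.764 of control (adjusted p = 0.0265, edgeR). At P0, where it was also called alone (-0.74, SE 0.21, adjusted p = 0.0234), it stood at 24.5, 31.1 and 22.2 CPM in Fzd1lacZ and at 40.1, 41.3 and 48.8 CPM in control, with no overlap (4 of the 8 genes and 18.7% of all genes were lower without overlap at P0). The share of all genes called lower at P0 was 3.33%, and ciliated cell markers were lower there for 5 of 7 genes, whose part was not tested. At P3 the values were 20.6, 25.1 and 26.5 CPM beside 29.8 and 32.6 CPM, again apart (as for 25.8% of all genes, lower), and from P7 on the groups overlapped. No other gene was called at P0, where 5 of the 8 had an unadjusted p below 0.05 by edgeR. None was called at P3 (1.08% of all genes), P7 (0.0858%), P10 (0.285%) or P14 (0.714%) by edgeR, with 0, 0, 4 and 1 of the 8 at an unadjusted p below 0.05. The share of all genes at that unadjusted level was not counted in any comparison. The test of whether the knockout effect differs among ages called none by edgeR (2.77% of all genes), with Krt17 alone at an unadjusted p below 0.05 (0.00955, adjusted p = 0.106). The averaged call is narrow: it was lost with DESeq2 (adjusted p = 0.0556), in a fit of only the groups compared (0.0696), and without any 1 of 7 libraries (0.0565 to 0.067), namely control P3, P7 and P10 replicate 2, control P14 replicate 1, Fzd1lacZ P10 replicate 2 and Fzd1lacZ P14 replicates 2 and 3. The P0 call was lost without control replicate 2 or 3 or Fzd1lacZ replicate 1 or 3 (adjusted p = 0.0648 to 0.1), with the satellite-type share as a covariate (0.0778) and by limma on log2 TPM (0.334 and 0.52). Krt5 missed the threshold with a difference of -0.35 (SE 0.11, adjusted p = 0.0745), and passed it without control P0 replicate 3, Fzd1lacZ P7 replicate 1 or Fzd1lacZ P10 replicate 2 (adjusted p = 0.0181 to 0.0477).

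The other 5 genes were not called by edgeR, with 95% intervals of -0.42 to 0.05 for Krt14, -0.36 to 0.09 for Krt17, -0.27 to 0.42 for Icam1, -0.24 to 0.28 for Itgb4 and -0.30 to 0.08 for Itga6. On the TPM scale, which moved the median of all genes by -0.19 with a pseudocount of 1 and -0.34 with 0.1, limma called 6 of the 8 lower: Krt5, Krt15, Trp63, Krt14, Krt17 and Itga6. The share of all genes that limma called lower is not given here, so this count has no background beside it. With a pseudocount of 0.1 Krt14 differed by -0.64 (adjusted p = 0.0179, limma), Krt17 by -0.56 (0.0205) and Itga6 by -0.43 (0.0399). Relative to Krt5 in the same library Krt15 differed by -0.50, lower at 4 of 5 ages (adjusted exact permutation p = 0.0336), Icam1 by 0.38, higher at 5 of 5 ages, and Itgb4 by 0.44, higher at 4 of 5 (both 0.0467). These ratio calls are narrow. Without 1 library the Icam1 and Itgb4 calls were each lost in 18 of 28 fits (adjusted exact permutation p up to 0.0893 and 0.166) and that of Krt15 in 6 of 28 (up to 0.0603), and on the log2 ratio of TPM + 0.1 those of Itgb4 (0.188) and Krt15 (0.0935) were lost too. Among the partner lists Lamb3, a laminin chain gene, was lower (-0.36, SE 0.10) and Pax6, a transcription factor of the epithelium, was higher (0.21, SE 0.06), and no p63 target was called. Of 5 Bowman gland markers 3 were lower (Obp2b by 1.63, SE 0.31), and their summed level was 572 to 842 CPM in Fzd1lacZ at P14 beside 3802 to 5153 CPM in control. The part of gland ducts in the 2 basal gene differences was not tested. Omp was 10.6-fold higher in Fzd1lacZ than in control, and the genotypes share an ID series only at P14. Set directly against ectopicFzd1, Fzd1lacZ had lower Krt5 (-0.36, SE 0.11, adjusted p = 0.0182, edgeR), 1 of 8 where 5.63% of all genes were lower. That call was lost without ectopicFzd1 P7 replicate 2 (adjusted p = 0.0674) and without the 8 libraries above 25% satellite-type share (0.12).

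**Figure D4:**
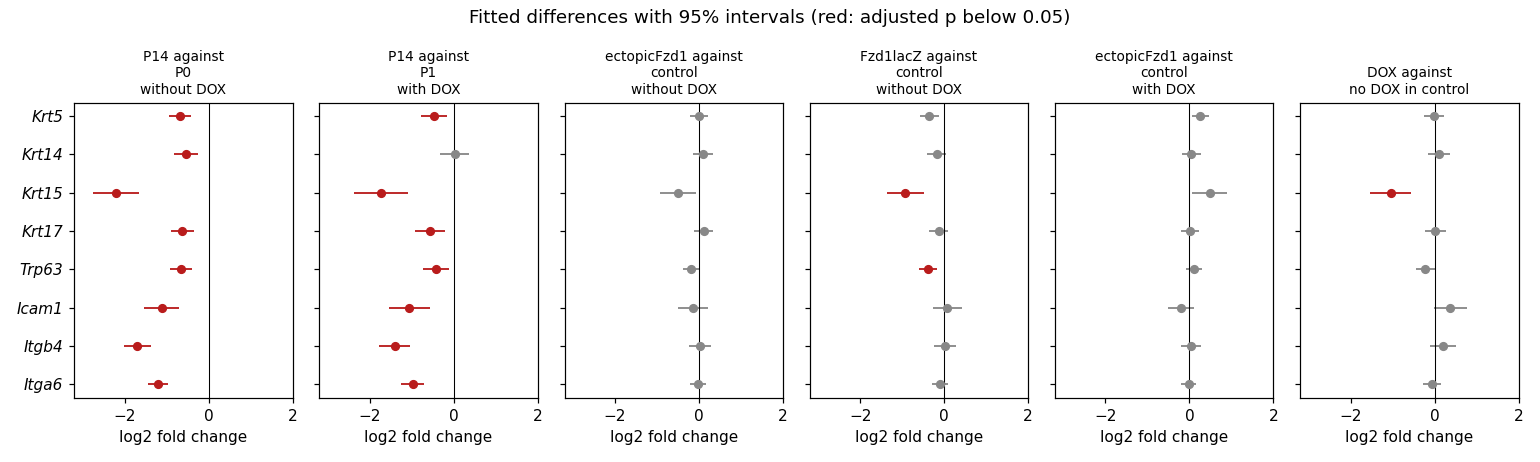
Fitted log2 fold change of each gene with its 95% interval in 6 comparisons, red where edgeR's adjusted p was below 0.05. All 8 genes are red and below 0 for P14 against P0 without DOX, none is red for ectopicFzd1 against control, and Krt15 and Trp63 are red for Fzd1lacZ against control.

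DOX tests whether the transgene effect can be switched off, and with DOX Fzd1 lay between 22.0 and 64.0 CPM in ectopicFzd1. Averaged over ages, edgeR, DESeq2 and limma on log2 TPM called none of the 8 genes between ectopicFzd1 with DOX and control with DOX (0.826% of all genes called), with 2 at an unadjusted p below 0.05. The fitted differences ran from -0.19 for Icam1 to 0.49 for Krt15 (SE 0.21, adjusted p = 0.362). The DOX difference, which is the ectopic effect without DOX minus that with DOX over P3 to P14, also called none by these 3 tools (2.39% of all genes), with Krt15 at -0.99 (SE 0.35, adjusted p = 0.145). Without control DOX P3 replicate 3 it was called (-1.23, adjusted p = 0.024). In control, DOX against no DOX called Krt15 alone, lower by 1.04 (SE 0.25, adjusted p = 0.0259, edgeR), where 0.289% of all genes were lower. Control libraries with and without DOX shared an ID series only at P14. At P3, P7 and P10 DOX and series cannot be told apart in this comparison. The Krt15 call was lost on the TPM scale (adjusted p = 0.355 and 0.473), without the 2 libraries whose Fzd1 goes against the label (0.0532), and without any 1 of 7 libraries (0.0505 to 0.0818): control P3 replicate 1, control P7 and P10 replicate 2, control P14 replicate 1, control DOX P3 and P10 replicate 2 and control DOX P7 replicate 1.

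With DOX, differences at single ages had opposite signs. The test of whether the ectopicFzd1 effect with DOX differs among ages called 5 of the 8 genes, Krt5, Krt14, Krt15, Icam1 and Itgb4 (9.6% of all genes tested). Krt15 shows the pattern. At P3 it was at 39.6, 23.4 and 13.5 CPM in ectopicFzd1 and at 30.7, 29.8 and 113 CPM in control, while at P10 it was at 44.5, 51.6 and 51.0 CPM beside 10.5, 8.09 and 11.3 CPM. At P14 it was at 37.6, 39.5 and 22.0 CPM beside 8.49, 13.1 and 17.5 CPM. So at P10 and P14 every ectopicFzd1 library lay above every control library (as for 4 of the 8 genes at each age, and 10.6% and 8.57% of all genes), with fitted differences of 2.29 (SE 0.53, adjusted p = 0.0539) and 1.41 (SE 0.51, adjusted p = 0.329) that edgeR did not call. The P10 difference was called by DESeq2 (adjusted p = 0.012), without the libraries above 25% satellite-type share (0.0273), with that share as a covariate (0.0482) and without the 2 libraries whose Fzd1 goes against the label (0.0416). In a fit of only the groups compared both were called (6.01e-07 and 0.015, edgeR), as they were with no filter on low counts. Krt5 followed the same order, at 39.3, 40.7 and 24.5 CPM beside 41.1, 51.1 and 83.7 CPM at P3, and at 52.0, 56.8 and 54.8 CPM beside 31.3, 29.0 and 31.0 CPM at P10. Icam1 was at 7.21, 11.2 and 3.52 CPM in ectopicFzd1 at P3 beside 14.96, 10.8 and 25.04 CPM, and its fitted difference went from -1.29 (SE 0.33) at P3 and -1.22 (SE 0.34) at P7 to 1.05 (SE 0.38) at P10, none of them called by edgeR. With no filter on low counts edgeR called all 3 (adjusted p = 0.000469, 0.000233 and 0.0481), and it called P7 without control DOX P7 replicate 3 (-1.59, adjusted p = 0.00454) and without libraries above 25% (0.022). The tests by age depend on the scale: limma on log2(TPM + 1) no longer called Krt5 (adjusted p = 0.0603) or Krt14 (0.104), and with a pseudocount of 0.1 it called none of the 5 (0.113 to 0.303).

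At single ages with DOX 2 genes were called by edgeR, 1 at P1 and 1 at P3, and none at P7 (0.569% of all genes), P10 (0.0858%) or P14 (0.199%), where 3, 4 and 3 of the 8 had an unadjusted p below 0.05. Itgb4 was higher in ectopicFzd1 at P1, at 60.0, 52.2 and 35.8 CPM beside 23.1, 27.9 and 31.9 CPM (0.83, SE 0.24, adjusted p = 0.0142, edgeR, where 8.71% of all genes were higher). Krt14 was lower at P3, at 22.5, 28.8 and 24.3 CPM beside 30.7, 45.8 and 83.3 CPM (-1.10, SE 0.25, adjusted p = 0.046, edgeR, where 0.131% of all genes were lower). Of these, Itgb4 lost its call without control replicate 1 or ectopicFzd1 replicate 1 or 2 (adjusted p = 0.0506 to 0.116), and Krt14 in 5 of 6 fits, with -0.62 without control DOX P3 replicate 3 (adjusted p = 0.816). That library had the highest Krt5, Krt14 and Krt15 of its group, and without it Krt14 also lost its call in the test by age (adjusted p = 0.0533). Control and ectopicFzd1 with DOX came from different ID series at P3, P7, P10 and P14, so genotype and series cannot be told apart at these ages. Omp, a neuron gene, also separated them, at 865 to 890 CPM in control and 30.8 to 41.9 CPM in ectopicFzd1 at P10. All 3 ectopicFzd1 DOX P3 titles carry 1 ID, so those libraries may not be separate animals. The same holds for ectopicFzd1 DOX P10 replicate 3 and P14 replicate 1, whose titles share an ID.

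**Figure D5:**
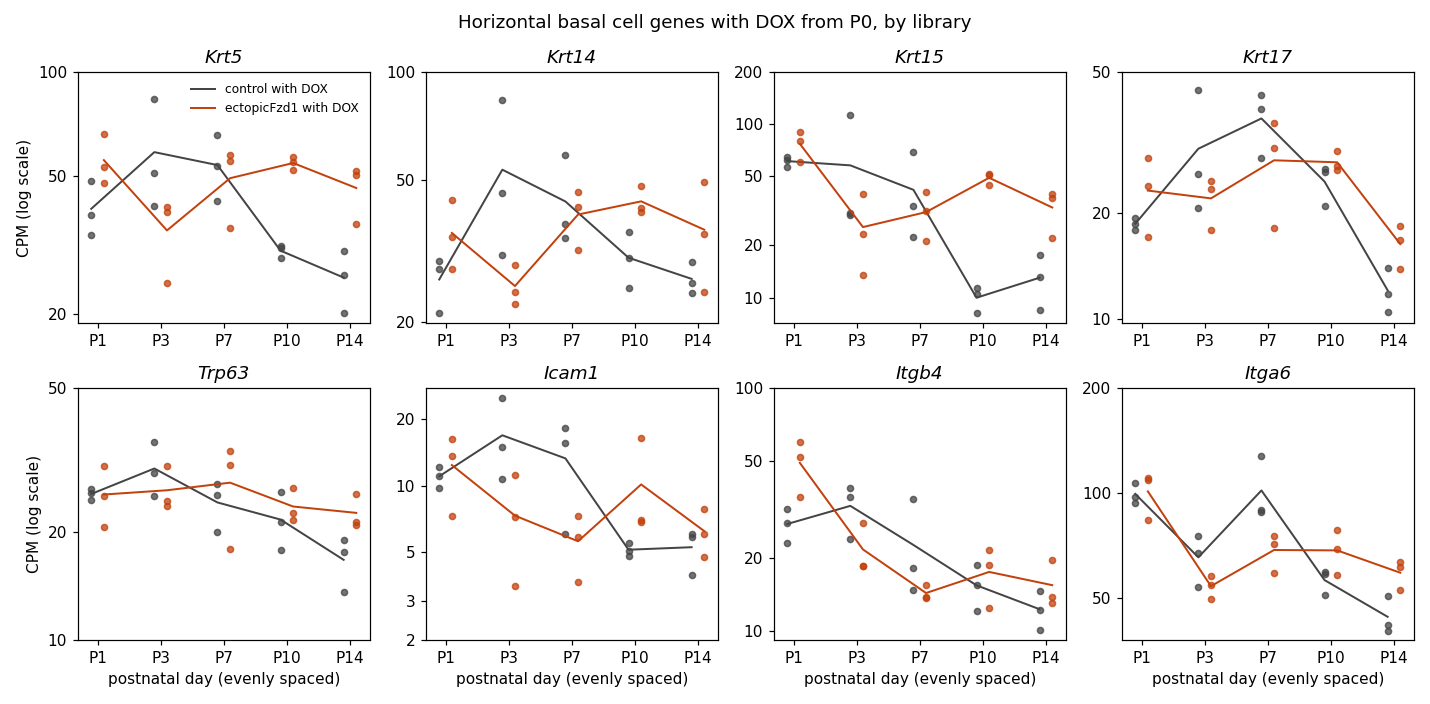
CPM of each gene (log axis) against postnatal day with DOX from P0, in control and ectopicFzd1, with points for libraries and lines for group means. Krt5 and Krt15 in ectopicFzd1 lie above control in every library at P10 and P14, and control P3 replicate 3 stands high in Krt5, Krt14 and Krt15.

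Across the 25 group means the 8 genes were related to different degrees, given as a description since the groups share age and depth. Log2 CPM of Krt15 and Itga6 and of Itgb4 and Itga6 had a Pearson r of 0.87, Krt5 with Krt14 and with Krt15 0.83, and Krt17 stood furthest from the rest, with r from 0.43 (Itgb4) to 0.68 (Krt14). Over 16718 other genes, the closest to Krt15 were Ly6d (r = 0.941), Csn3 (0.938) and Car6 (0.935), and the closest to Krt5 were Adgre5 (0.913), Elf3 (0.889) and Tspan1 (0.884). Krt14 was closest to Kcnj16 (0.905), Tmem176b (0.885) and Tmem176a (0.882). For Krt17 the closest was Plek2 (0.739). Col17a1, of the hemidesmosome, was the closest gene to both Trp63 (0.862) and Icam1 (0.873). Trp63 was followed by Ccdc17 (0.851) and Kndc1 (0.849), and Icam1 by Parm1 (0.86) and Adam8 (0.859). Itgb4 was closest to Dnah2 (0.968), a ciliary dynein gene, Traf3ip2 (0.964) and Itpr3 (0.958), and Itga6 to Map3k1 (0.965), Sntb1 (0.956) and Palmd (0.956).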

How the data were processed

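RNA of 72 olfactory epithelium libraries was sequenced after ribosomal RNA removal with a stranded kit, per the labels' protocols. The submitters' processing notes name bcl2fastq 2.18, STAR 2.6.1c, RSEM and mm10. The annotation release and use of strand are not given in the sources used here. The authors deposited whole-number read counts per gene and a table of TPM (length-scaled transcript abundance) values. Rows that name no gene were left out of library sizes: reads without a feature were 22.16% to 62.2% of a library and multimapping reads 8.974% to 41.91%.

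Counts were fitted with edgeR 4.0.16 in R 4.3.3 (quasi-likelihood test, TMM scaling, filterByExpr, 1 term per group over all 25 groups, Benjamini-Hochberg adjustment over 22144 genes, threshold 0.05). CPM are counts scaled to the TMM-corrected library size. DESeq2 1.42.0 and limma 3.58.1 on log2(TPM + 1) and log2(TPM + 0.1) were alternatives, beside other filters, a satellite-share covariate and leaving out libraries. The scripts were tested on simulated data. Ratios to Krt5 used exact permutation within groups of 1 genotype or age. The depth limits the precision: the 8 genes had 105 to 4559 counts per library.

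The members, lists and tests were chosen with earlier results of these data known. Named genes are the 8 members, up to 4 called genes of each list by adjusted p, and the 3 genes closest to each member by Pearson r over group means (for Krt17, only the closest is reported here).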

Additional observations from a re-analysis of the deposited data

Results flagged for a closer look

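The effect of ectopicFzd1 with DOX differed among ages for 5 of the 8 genes by an edgeR quasi-likelihood test, adjusted over all genes tested. That test jointly compared the difference between ectopicFzd1 and control at each later age with the difference at P1. The adjusted p was 0.000833 for Krt5, 0.00156 for Icam1, 0.00188 for Krt15, 0.0027 for Krt14 and 0.0103 for Itgb4. Krt5, Krt14, Krt15 and Icam1 had fitted differences below 0 at P3 and above 0 at P10, while Itgb4 was at 0.83 at P1 and -0.64 at P7. The same test called 9.6% of all genes.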

How the results depend on the processing

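No paired analysis was possible because the titles carry no replicate numbers. The ID series was fitted as a covariate only for ectopicFzd1 against control over P0 to P10, where 0 of the 8 genes were called with or without it, and was not run for the other comparisons. No called result changed sign. Krt14, not called and near 0 in edgeR, was called lower by limma at P7 than at P3 (0.09 against -0.53 on log2(TPM + 1)) and with DOX at P14 than at P1 (0.02 against -0.88 and, with a pseudocount of 0.1, -0.95). In the counts of members called, Fzd1lacZ against control went from 2 to 1 with DESeq2 and with only the groups compared, and to 6 with either TPM pseudocount. Fzd1lacZ against ectopicFzd1 went from 1 to 3 with no filter and to 0 with either TPM pseudocount and without libraries above 25% satellite-type share. DOX against no DOX in control went from 1 to 0 with either TPM pseudocount and without the 2 libraries whose Fzd1 goes against the label. With no filter, ectopicFzd1 against control without DOX, the same with DOX and the DOX difference each went from 0 to 1. P14 against P0 went from 8 to 5 with the satellite share as a covariate. Calls at single ages went from 3 to 5 with DESeq2, 17 with no filter, 7 with only the groups compared and with either TPM pseudocount, and 9 without libraries above 25%. The cause was not tested. Leaving out 1 library gave 0 to 1 for ectopicFzd1 against control, DOX against no DOX and the DOX difference, 1 to 3 for Fzd1lacZ against control, 0 to 3 against ectopicFzd1, 0 for ectopicFzd1 with DOX, 8 for P14 against P0, 5 to 7 for P14 against P1, 16 to 19 within genotypes, 2 to 4 at single ages and 12 to 14 for the tests by age. DESeq2 was not run for the tests by age, nor leaving out libraries for the steps between ages. The TPM scale moved the median of all genes by -0.40 and -0.62 between P0 and P14. Low counts of Icam1, at least 3 in each library, limit what its comparisons can show.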
